A study of Mus musculus with 12 samples.

Results

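The genes described here are the extracellular proteases of the MMP, ADAMTS and ADAMTS-like families and the TIMP inhibitors, as measured in mice with disrupted Smad3 or blocked TGF-beta and in their controls. Members were all genes whose symbol is Mmp, Timp, Adamts or Adamtsl followed by a number. They came to 42 of the 18194 genes measured, made up of 18 Mmp, 4 Timp, 15 Adamts and 5 Adamtsl genes. Each gene is represented by its brightest probe set, by the mean of all 12 arrays, out of those that name no other gene. Within these families the rule used symbols alone.

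Total RNA was hybridised to 12 Affymetrix arrays in 6 groups of 2, with the letters a and b. Wild-type mice were C57BL/6 on a regular diet or a high fat diet (55% fat). Mice labelled Smad3-/- were of mixed C57BL/6 and NIH Black Swiss background and received the same diets, so genotype and strain background cannot be told apart. Smad3 is a signal carrier of the TGF-beta pathway that enters the nucleus after receptor activation. A second experiment used diet-induced obese mice on a high fat diet (55% fat), of a strain the labels spell C57J/B6. They received intraperitoneal injections, 3 times a week over 8 weeks, of control IgG (13C4) or of an antibody against TGF-beta (1D11). The IgG controls of that experiment were thus obese too. The labels name no tissue. Adipoq, the fat-cell hormone gene that defines adipocytes, lay between 13.01 and 14.18 log2 units on all arrays. Smad3 itself was not called different by genotype on either diet with any of its probe sets (limma adjusted p of 0.0952 or more), and the position of these probe sets within the gene was not used here. The word knockout below stands for the arrays labelled Smad3-/-.

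Matrix metalloproteinases (MMPs) are zinc proteases that are secreted or held at the cell surface as inactive precursors and cleave collagens, elastin, laminins and other matrix proteins once activated. ADAMTS proteases carry thrombospondin repeats and cleave proteoglycans such as versican and aggrecan, or process procollagens, while ADAMTS-like proteins share these repeats but have no protease domain. TIMPs bind the active site of MMPs and, in the case of Timp3, also of ADAM and ADAMTS proteases. In fat tissue these enzymes remodel the matrix around growing adipocytes, and TGF-beta signalling is a known regulator of several of them.

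Many MMP promoters are known to carry a site for the AP-1 transcription factor close to the start of transcription. The start regions of the members, 250 bases before to 50 bases after each start in RefSeq's table (GRCm38.p6), were searched for the AP-1 letters TGANTCA on both strands, a search in which both strands give the same matches because the letters read the same in reverse complement. Of the 27 members whose region was searched, 8 held the letters. Over all 32851 regions of that length the share was 7.81%. All of the 8 lie in a run of 10 neighbouring protein-coding genes on chromosome 9, all of them Mmp genes, 9 of which are members. Mmp8 was the only member of the run without the letters, and no Timp, Adamts or Adamtsl region that was searched held them. The 8 windows of 33 bases are printed because they include both members with the largest called differences below, Mmp12 and Mmp7, and neighbours under the array median on all arrays. Each runs 5′ to 3′ on the gene's strand with the matched letters in capitals.
Mmp12: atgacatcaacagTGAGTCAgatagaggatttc
Mmp7: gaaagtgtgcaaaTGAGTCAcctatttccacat
Mmp3: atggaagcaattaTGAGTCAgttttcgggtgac
Mmp13: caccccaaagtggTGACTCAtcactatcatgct
Mmp20: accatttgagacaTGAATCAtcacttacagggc
Mmp1a: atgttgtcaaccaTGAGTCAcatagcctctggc
Mmp10: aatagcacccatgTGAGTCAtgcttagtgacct
Mmp1b: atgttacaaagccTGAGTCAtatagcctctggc
The windows lie on chromosome 9 of GRCm38.p6, at chr9:7347317-7347349 for Mmp12, chr9:7692014-7692046 for Mmp7, chr9:7445763-7445795 for Mmp3, chr9:7272466-7272498 for Mmp13, chr9:7628123-7628155 for Mmp20, chr9:7464055-7464087 for Mmp1a and chr9:7502266-7502298 for Mmp10, all on the plus strand, and at chr9:7388100-7388132 on the minus strand for Mmp1b. The first matched base stood at -35 from the start in Mmp13, -44 in Mmp12, -46 in Mmp3, -63 in Mmp7 and Mmp10, -73 in Mmp1a, -93 in Mmp1b and -95 in Mmp20. Mmp12 and Mmp7 each have a further listed start whose region lacks the letters. A match describes these letters and does not show that AP-1 binds there.

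The whole start regions of Mmp12 and Mmp7 follow, at chr9:7347124-7347423 and chr9:7691840-7692139, both on the plus strand, with the matched letters in capitals.
Mmp12 start region: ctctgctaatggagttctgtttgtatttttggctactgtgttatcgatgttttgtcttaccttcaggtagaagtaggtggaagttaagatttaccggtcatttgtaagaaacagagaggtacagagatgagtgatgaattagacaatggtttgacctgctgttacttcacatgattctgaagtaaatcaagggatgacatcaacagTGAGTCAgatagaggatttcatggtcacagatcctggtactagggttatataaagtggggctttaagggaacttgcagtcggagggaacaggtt
Mmp7 start region: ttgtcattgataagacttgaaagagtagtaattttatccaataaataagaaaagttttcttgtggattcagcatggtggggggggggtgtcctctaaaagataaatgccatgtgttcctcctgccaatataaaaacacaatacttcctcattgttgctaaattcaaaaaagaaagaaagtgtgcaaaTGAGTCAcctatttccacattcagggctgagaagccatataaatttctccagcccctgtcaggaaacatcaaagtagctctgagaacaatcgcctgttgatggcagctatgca

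Values are log2 signals made with RMA, and each difference is between group means of 2 arrays, with its standard error (SE) from limma fitted over all 18194 genes on the 12 arrays. A gene is called where limma's two-sided p, adjusted over all genes, is under 0.05. Whether arrays a and b of a group stem from different animals is not stated in the labels, and p-values then cover no more than the spread between 2 arrays, and that spread may be technical. Array medians were 6.32 to 6.39 over the 8 diet and genotype arrays, and 6.03 to 6.04 over the 4 antibody arrays, which had a wider spread, and no level is set against one of the other experiment. Of the 42 members, 21 lay above their array's median on all 12 arrays and 12 on none, and 26 had a mean above the 40th percentile of genes. Signals around or under the array median can be background, which can shrink a difference. The difference between 3′ and 5′ probe sets of Gapdh, a sign of RNA quality, was 0.118 and 0.144 on the wild-type regular-diet arrays, 0.278 to 0.499 on the remaining 6 diet and genotype arrays and 0.021 to 0.138 on the arrays of the antibody experiment. For beta-actin it was 0.799 and 0.768, 0.9 to 1.116, and, without overlap, 0.607 and 0.672 with IgG and 0.871 and 0.747 with the antibody. The part of these differences in the results was not tested.

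In wild-type mice, the high fat diet changed 10 of the 42 members (23.8%, against 10.8% of all genes), 3 higher and 7 lower than on the regular diet (all genes, 4.69% higher and 6.11% lower). In the knockout the diet changed 11 (26.2%, against 17.3% of all genes), 8 higher and 3 lower (all genes, 11.5% and 5.82%). Genotype on the regular diet changed 10 (23.8%, against 24% of all genes), 1 higher and 9 lower in the knockout (all genes, 8.4% and 15.6%), a share close to that of all genes. Genotype on the high fat diet changed 6 (14.3%, against 10.8% of all genes), 2 higher and 4 lower (all genes, 4.74% and 6.05%). The diet responses of the genotypes differed in 12 members (28.6%, against 18.8% of all genes) by the test of the interaction, which is the diet difference in the knockout minus that in wild type, 9 with a positive and 3 with a negative value (all genes, 12% and 6.77%). The antibody against TGF-beta changed 20 members (47.6%, against 24.3% of all genes), 9 higher and 11 lower than with IgG (all genes, 11.7% and 12.6%). Comparisons that use the same groups of arrays, such as diet in wild type and genotype on the regular diet, which share the wild-type regular-diet arrays, are not independent of each other.

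The median log2 difference of the 42 members lay close to that of all genes in each case, at -0.03 against 0.02 for diet in wild type, 0.04 against -0.0041 for diet in the knockout and -0.02 against 0.04 for genotype on the regular diet. It was 0.01 against -0.01 for genotype on the high fat diet, 0.08 against -0.02 for the interaction and -0.05 against -0.0031 for the antibody. The members thus had called differences in both directions around medians near 0. Quantile normalization applied again over the 12 arrays changed the split to 4 higher and 8 lower for genotype on the regular diet, 4 and 4 for genotype on the high fat diet, and 5 higher and 8 lower for the antibody. Among all genes 5010 (2438 higher), 2376 (1081 higher) and 3268 (1575 higher) were then called in these comparisons, in place of 4361, 1963 and 4423. Leaving out any 1 of the 4 arrays compared lowered the number of calls for the antibody and for diet in the knockout, among the members as among all genes.

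**Figure D1:**
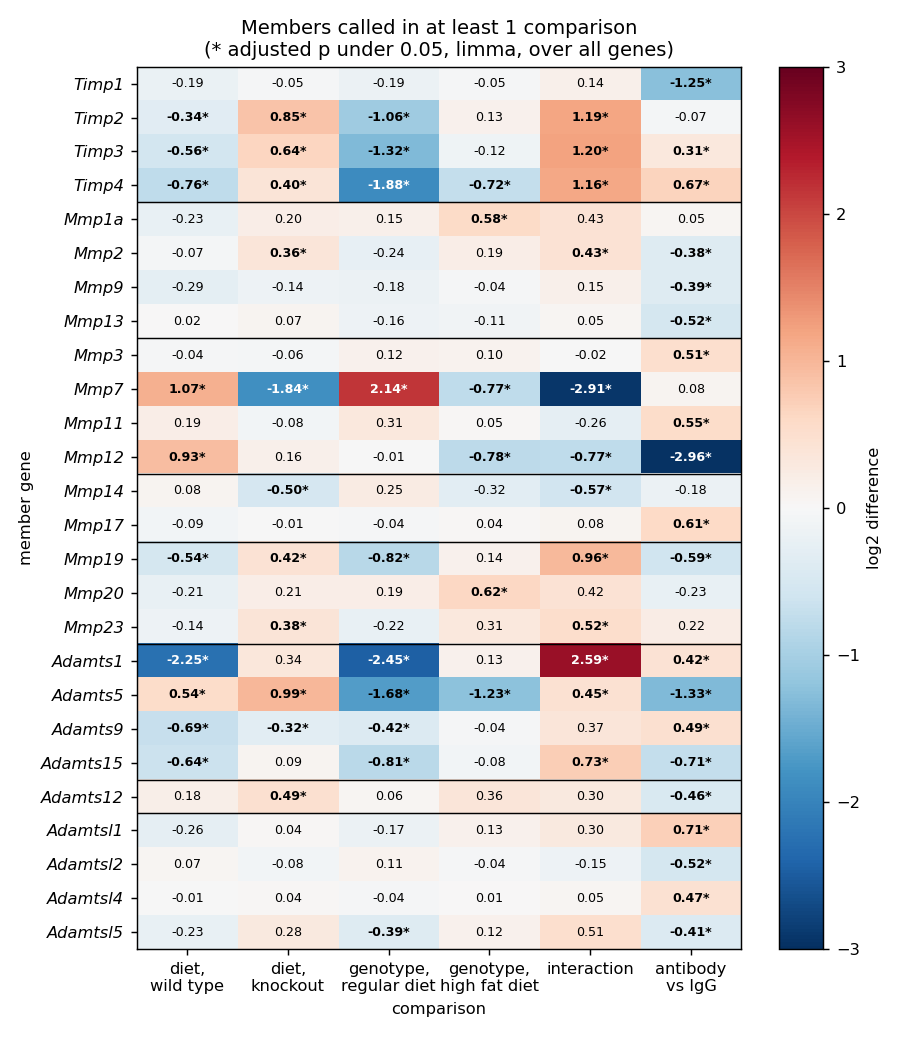
Log2 differences (colour and printed value) of the members called in at least 1 of the 6 comparisons, in rows ordered by role with lines between roles; the columns are the comparisons, and an asterisk with bold type marks an adjusted p under 0.05 in limma over all genes. Mmp12 has the lowest value with the antibody (-2.96), and Timp2, Timp3 and Timp4 are lower in the knockout on regular diet (-1.06, -1.32 and -1.88).

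Across the 6 comparisons there were 69 calls among the members. Mmp19 and Timp3 are examples of genes called in 5 comparisons, Timp4 and Adamts5 were called in all 6, and 16 members were called in none. Of the 69 calls, 36 held under each alternative setting and with each array left out, while 31 were lost when some array was left out. The SEs of called members were 0.102 to 0.172 between groups of 2 arrays and 0.144 to 0.243 for the interaction.

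Of the 4 inhibitors, 3 (Timp2, Timp3 and Timp4) were lower in the knockout than in wild type on the regular diet, while Timp1 was not called there. That is 75%, against 24% of all genes called and 15.6% lower. Timp4, the inhibitor gene best known from heart and fat tissue, read 10.82 and 10.92 on the wild-type regular-diet arrays, 10.07 and 10.15 on high fat, 9.19 and 8.79 in the knockout on regular diet, and 9.39 and 9.38 in the knockout on high fat. The wild-type regular-diet arrays were the highest and all knockout arrays lay below all wild-type arrays. The fall with genotype was -1.88 ± 0.11 (SE, 3.68-fold, limma adjusted p = 1.47e-13) on the regular diet and -0.72 ± 0.11 (1.64-fold, adjusted p = 3.09e-05) on the high fat diet. The diet lowered Timp4 in wild type by -0.76 ± 0.11 (adjusted p = 1.23e-05) and raised it in the knockout by 0.40 ± 0.11 (adjusted p = 0.0122), a call lost without knockout regular-diet array b (0.20, adjusted p = 0.311), without either knockout high-fat array and after quantile normalization (adjusted p = 0.0739). The interaction of 1.16 ± 0.16 (adjusted p = 2.07e-06) held under each alternative.

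Timp3, which is bound to the matrix and inhibits ADAMTS proteases as well as MMPs, followed a like order. It read 11.53 and 11.60 in wild type on regular diet, 10.97 and 11.05 on high fat, 10.37 and 10.11 in the knockout on regular diet and 10.83 and 10.94 on high fat. The knockout regular-diet arrays were the lowest and overlapped with no other group. Timp3 was lower by genotype on the regular diet (-1.32 ± 0.10, 2.50-fold, limma adjusted p = 4.01e-11) and was not called by genotype under high fat feeding (-0.12 ± 0.10). The diet lowered it in wild type by -0.56 ± 0.10 (adjusted p = 0.00028) and raised it in the knockout by 0.64 ± 0.10 (adjusted p = 2.7e-05), with an interaction of 1.20 ± 0.15 (adjusted p = 3.03e-07).

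Timp2, the inhibitor that also takes part in the activation of proMMP-2 at the cell surface, read 10.70 and 10.77 in wild type on regular diet, 10.28 and 10.50 on high fat, 9.76 and 9.59 in the knockout on regular diet and 10.51 and 10.53 on high fat. The knockout regular-diet arrays again lay below all others. It fell by genotype on the regular diet (-1.06 ± 0.10, 2.09-fold, limma adjusted p = 2.5e-09), was not called on the high fat diet (0.13 ± 0.10), and rose with diet in the knockout (0.85 ± 0.10, adjusted p = 2.72e-07). The fall with diet in wild type, -0.34 ± 0.10 (adjusted p = 0.0259), was lost without either wild-type regular-diet array (adjusted p = 0.0829 and 0.198), without wild-type high-fat array a (adjusted p = 0.298) and under 3 of the other settings. The interaction was 1.19 ± 0.14 (adjusted p = 2.8e-07).

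With the antibody, Timp1 was lower than with IgG, and Timp3 and Timp4 were higher (75% of the 4 called, against 24.3% of all genes). Timp1, the inducible inhibitor that binds proMMP-9, read 8.06 and 7.99 on the IgG arrays and 6.80 and 6.76 on the antibody arrays, and the groups did not overlap. That is a fall of -1.25 ± 0.13 (SE, 2.38-fold, limma adjusted p = 1.7e-08), which held without each array. In the diet and genotype experiment Timp1 read between 7.01 and 7.44 on all 8 arrays and was called in none of the comparisons, at -0.19 ± 0.13 for genotype on the regular diet (adjusted p = 0.338). Timp4 read 10.09 and 9.97 with IgG and 10.69 and 10.72 with the antibody, a rise of 0.67 ± 0.11 (adjusted p = 3.65e-05). Timp3 read 11.42 and 11.51 with IgG and 11.76 and 11.80 with the antibody, a rise of 0.31 ± 0.10 (adjusted p = 0.0255) that was lost without any 1 of the 4 arrays (adjusted p = 0.0587 to 0.186). Timp2 was not called (-0.07 ± 0.10, 11.63 and 11.64 against 11.59 and 11.55).

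**Figure D2:**
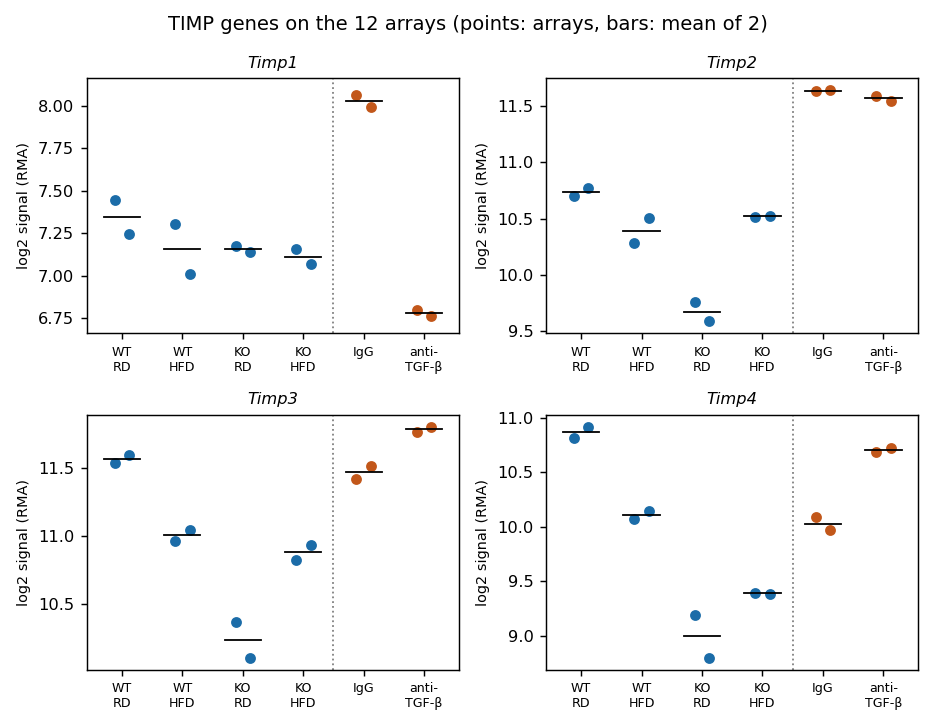
Log2 signal of the 4 Timp genes on each array (points) with the mean of 2 arrays (bars), by group, with WT for wild type, KO for knockout, RD for regular diet and HFD for high fat diet; the dotted line separates the 2 experiments and the vertical axes differ between panels. Timp2, Timp3 and Timp4 have their lowest arrays in the knockout on regular diet, and Timp1 falls from 8.06 and 7.99 with IgG to 6.80 and 6.76 with the antibody.

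Marker levels of other cells moved with these groups. The mean log2 level of 8 fat-cell markers was 12.67 to 12.72 in wild type on regular diet, 11.31 to 11.44 in the knockout on regular diet, where 7 of 8 were lower, and 12.39 to 12.56 in both groups on high fat diet. The mean of 8 smooth muscle markers was 11.07 to 11.11 in wild type on regular diet and 7.48 to 8.41 in the other 3 groups of that experiment. All 8 of those markers were lower with diet in wild type and with genotype on the regular diet, where Timp2, Timp3 and Timp4 were also lower and Timp1 was not called. Of 7 brown fat markers, 6 were higher in the knockout on each diet and 7 with the antibody. All 8 measured genes of an epididymis and testis list were higher by genotype on the regular diet. Their mean was 11.32 to 11.36 in the knockout and 5.53 in wild type on that diet. The part of these lists in the Timp differences, and in other differences that use the knockout regular-diet arrays, was not tested. In tissue RNA, fewer cells of a type and less RNA per cell cannot be told apart.

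Among the secreted MMPs that act outside the collagenase group, Mmp12 and Mmp7 had the largest differences of any MMP. Mmp12, the macrophage metalloelastase, read 10.99 and 10.75 on the IgG arrays and 7.93 and 7.87 on the antibody arrays. The groups lay far apart, a fall of -2.96 ± 0.13 (SE, 7.80-fold, limma adjusted p = 2.9e-16). In the other experiment it read 5.95 and 5.72 in wild type on regular diet, 6.68 and 6.85 on high fat, 5.75 and 5.89 in the knockout on regular diet and 6.01 and 5.95 on high fat. Only the wild-type high-fat arrays lay above their array's median level. The diet thus raised it in wild type (0.93 ± 0.13, 1.90-fold, adjusted p = 6.65e-06) and was not called in the knockout (0.16 ± 0.13). On the high fat diet it was lower in the knockout by -0.78 ± 0.13 (1.72-fold, adjusted p = 9.02e-05), with an interaction of -0.77 ± 0.19 (adjusted p = 0.00302). These calls held under each alternative setting that gave a value and without each array.

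The mean level of 12 macrophage markers was 11.26 on both IgG arrays and 9.66 to 9.70 on the antibody arrays, and 11 of 12 were lower with the antibody. On the high fat diet it was 8.75 to 8.86 in wild type and 7.89 to 8.10 in the knockout, with 8 of 12 lower. Between the diets in wild type, 4 of 12 were higher and 1 lower on the high fat diet. The macrophage list was therefore lower in both comparisons of 2 groups in which Mmp12 was lower. In the interaction, where Mmp12 was negative too, 4 of 12 macrophage markers were positive and 1 negative. With diet in the knockout 6 of 12 were higher and 1 lower, and Mmp12 was not called. The part of this list in the Mmp12 and Timp1 results was not tested. On the regular diet 9 of 12 were lower in the knockout (7.61 to 7.70 against 8.46 to 8.47), where Mmp12 was not called (-0.01 ± 0.13).

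Mmp7, matrilysin, an epithelial MMP, was the single member called higher in the knockout on regular diet. It read 7.10 and 7.17 in wild type on regular diet, 7.81 and 8.60 on high fat, 9.39 and 9.16 in the knockout on regular diet and 7.44 and 7.43 on high fat. The knockout regular-diet arrays were the highest and the wild-type high-fat arrays differed from each other by 0.785, the widest gap of any member in that group. The genotype difference on the regular diet was 2.14 ± 0.17 (SE, 4.40-fold, limma adjusted p = 7.22e-11), diet lowered it in the knockout by -1.84 ± 0.17 (3.58-fold, adjusted p = 2.56e-09) and raised it in wild type by 1.07 ± 0.17 (2.10-fold, adjusted p = 4.32e-05; 0.68 without wild-type high-fat array b). The interaction, -2.91 ± 0.24 (adjusted p = 2.55e-10), was the most negative of the members. The fall by genotype on the high fat diet (-0.77 ± 0.17, adjusted p = 0.00225) was lost without wild-type high-fat array b (-0.38, adjusted p = 0.214).

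The list of 8 epididymis and testis genes had the same order of groups as Mmp7. Its mean level was 11.32 to 11.36 on the knockout regular-diet arrays, 7.38 to 7.39 in wild type on high fat, 6.10 to 6.35 in the knockout on high fat and 5.53 in wild type on regular diet. The genotype comparison on the regular diet called all 8 of them higher, and the diet comparison within the knockout called 7 lower. The level of the knockout regular-diet arrays was thus not kept in the knockout on high fat diet. What set this level, strain background included, and the part of these genes in the Mmp7 result were not tested. In the antibody experiment the list lay between 4.86 and 5.01, and Mmp7 (6.00 to 6.36) was not called there (0.08).

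The stromelysins had smaller differences. Mmp3, stromelysin 1, read 6.30 and 6.67 with IgG and 7.19 and 6.81 with the antibody, a rise of 0.51 ± 0.15 (SE, limma adjusted p = 0.0155) that was lost without array a of either group (adjusted p = 0.24 in both cases) and after quantile normalization (adjusted p = 0.101). Mmp11, stromelysin 3, read 7.92 and 7.72 with IgG and 8.30 and 8.43 with the antibody, a rise of 0.55 ± 0.14 (adjusted p = 0.00527) lost without IgG array b, antibody array b or after quantile normalization (adjusted p = 0.0625 to 0.0763). In the diet and genotype experiment both lay under or near the array median, at 5.27 to 5.49 for Mmp3 and 5.83 to 6.31 for Mmp11, and neither was called. Mmp10, stromelysin 2, was under the median on all arrays and called in no comparison.

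**Figure D3:**
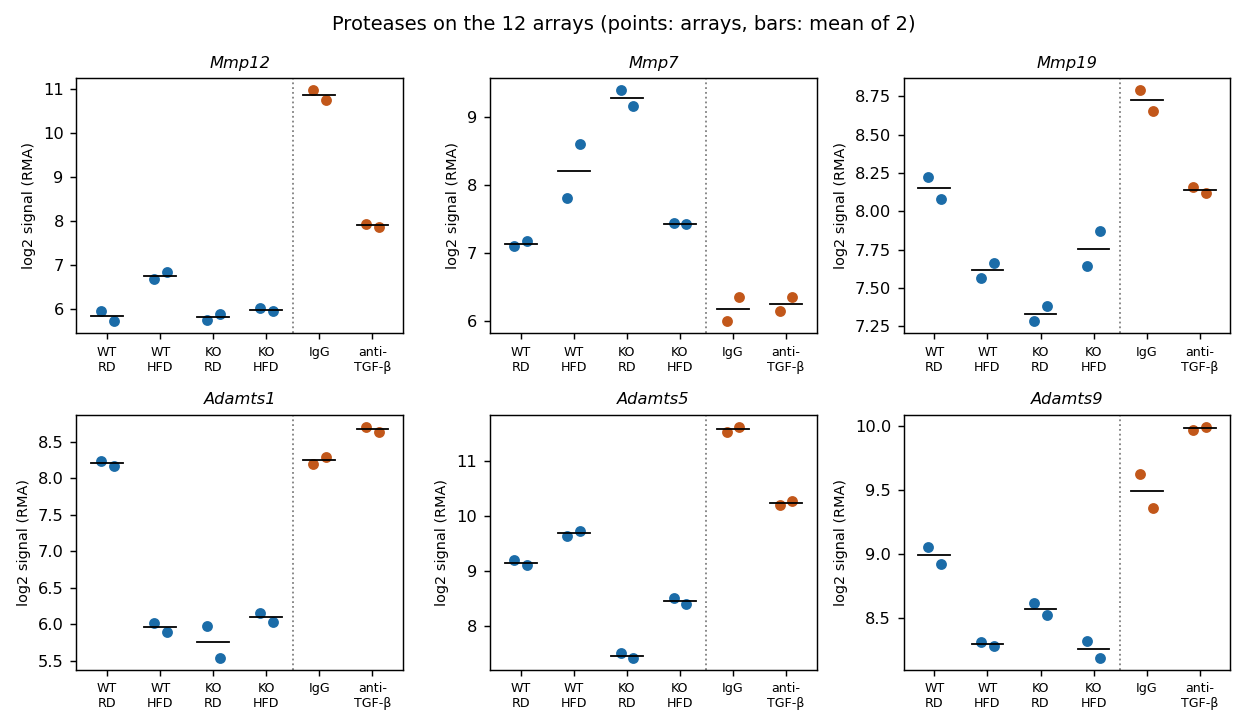
Log2 signal of Mmp12, Mmp7, Mmp19, Adamts1, Adamts5 and Adamts9 on each array (points) with the mean of 2 arrays (bars), by group as WT or KO on RD or HFD, IgG and anti-TGF-β; the dotted line separates the experiments and the vertical axes differ. Mmp12 falls from 10.99 and 10.75 with IgG to 7.93 and 7.87 with the antibody, Mmp7 is highest in the knockout on regular diet, and Adamts1 is high only in wild type on regular diet among the diet and genotype arrays.

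The gelatinases and collagenases showed few differences outside the antibody comparison. Mmp2, gelatinase A, a product of stromal cells, read 10.37 and 10.31 with IgG and 9.95 and 9.96 with the antibody, a fall of -0.38 ± 0.11 (SE, limma adjusted p = 0.00808) that was lost without IgG array a or either antibody array (adjusted p = 0.0545 to 0.0718). Both of its probe sets were lower, at -0.38 and -0.46. Mmp9, gelatinase B, a product of myeloid cells, read 6.04 and 6.00 with IgG and 5.68 and 5.57 with the antibody. All 4 arrays lay near or below the array median of 6.03 to 6.04. That fall of -0.39 ± 0.13 (adjusted p = 0.0296) was lost without any 1 of the 4 arrays (adjusted p = 0.0545 to 0.163) and under 2 of the other settings.

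In the diet and genotype experiment Mmp9 read between 6.49 and 6.85 and was not called in any comparison. Mmp2 read 8.34 and 8.11 in wild type on regular diet, 8.18 and 8.14 on high fat, 7.99 and 7.98 in the knockout on regular diet and 8.36 and 8.33 on high fat. It rose with diet in the knockout (0.36 ± 0.11, limma adjusted p = 0.0154), a call lost without 3 of the 4 arrays concerned (adjusted p = 0.0624 to 0.0883) and with the mean of its probe sets (adjusted p = 0.145), and was not called with diet in wild type (-0.07). The interaction for Mmp2 (0.43 ± 0.15, adjusted p = 0.0434) was lost without any of 11 of the 12 arrays (adjusted p = 0.0538 to 0.233).

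The collagenases Mmp1a, Mmp1b, Mmp8 and Mmp13 lay below the array median on all arrays. Mmp13, collagenase 3, read 3.70 and 4.09 with IgG and 3.37 and 3.38 with the antibody, a called fall of -0.52 ± 0.14 (SE, limma adjusted p = 0.00571) at a level that may be background, lost without IgG array b (adjusted p = 0.16). Mmp1a, a rodent interstitial collagenase, read 4.25 and 4.43 in wild type and 5.09 and 4.75 in the knockout on high fat diet, a rise of 0.58 ± 0.16 (adjusted p = 0.0136) lost without wild-type high-fat array a or knockout high-fat array a (adjusted p = 0.157 and 0.28). Mmp1b and Mmp8 were called in no comparison. All 4 hold such low values that a lack of calls cannot be read as a lack of change.

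Of the membrane-type MMPs, which are anchored in the plasma membrane, Mmp14, Mmp16, Mmp17 and Mmp24 were measured. Mmp14, or MT1-MMP, which activates proMMP-2 together with Timp2, read 7.94 and 7.73 in wild type on regular diet, 8.05 and 7.77 on high fat, 8.10 and 8.06 in the knockout on regular diet and 7.57 and 7.61 on high fat. The knockout high-fat arrays were the lowest, a fall with diet of -0.50 ± 0.12 (SE, limma adjusted p = 0.00251). The interaction of -0.57 ± 0.16 (adjusted p = 0.0123) was lost without wild-type high-fat array a or wild-type regular-diet array b. Of its 3 probe sets only the brightest was called in these comparisons, and the mean of the 3 fell by 0.21 (adjusted p = 0.125). With the antibody it was not called (-0.18 ± 0.12, 10.20 and 10.40 against 10.13 and 10.11). Mmp17 read 4.55 and 4.37 with IgG and 5.26 and 4.89 with the antibody (0.61 ± 0.16, adjusted p = 0.0055), under the array median throughout, a call lost without IgG array b or antibody array a (adjusted p = 0.0624 and 0.121). Mmp16 and Mmp24 were not called with the probe sets used.

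Mmp19, an MMP of vessels and skin that cleaves basement membrane proteins, was called in 5 comparisons. It read 8.23 and 8.08 in wild type on regular diet, 7.57 and 7.67 on high fat, 7.28 and 7.38 in the knockout on regular diet and 7.64 and 7.87 on high fat. The wild-type regular-diet arrays were the highest and the knockout regular-diet arrays the lowest, without overlap (-0.82 ± 0.12, SE, 1.77-fold, limma adjusted p = 3.31e-06). The diet lowered it in wild type (-0.54 ± 0.12, adjusted p = 0.00207, lost without wild-type regular-diet array a at adjusted p = 0.0555) and raised it in the knockout (0.42 ± 0.12, adjusted p = 0.0112, lost without knockout regular-diet array a or high-fat array b at adjusted p = 0.0854 and 0.211), with an interaction of 0.96 ± 0.17 (adjusted p = 7.09e-05). Its other probe set had the same directions, at -1.22 for genotype on the regular diet. With the antibody it fell from 8.79 and 8.66 to 8.16 and 8.12 (-0.59 ± 0.12, adjusted p = 0.000405).

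Mmp23, a membrane-linked MMP with a toxin-like domain, rose with diet in the knockout from 7.54 and 7.47 to 7.92 and 7.85 (0.38 ± 0.11, SE, limma adjusted p = 0.0176), and the interaction was 0.52 ± 0.16 (adjusted p = 0.0191). Its calls were lost without some arrays (adjusted p = 0.0581 to 0.119). Mmp20, the enamel protease enamelysin, was called higher in the knockout on high fat (5.00 and 4.87 against 5.48 and 5.62, 0.62 ± 0.14, adjusted p = 0.00271, and adjusted p = 0.0553 without knockout high-fat array b), below the array median on all arrays. Of the 9 members in the chromosome 9 run whose promoter letters are given above, only Mmp12 and Mmp7 had a mean above the 40th percentile of genes.

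Among the proteoglycan-cleaving ADAMTS genes, Adamts1 was high in wild type on regular diet alone within the diet and genotype experiment. Adamts1, which cleaves versican and aggrecan, read 8.24 and 8.17 in wild type on regular diet, 6.02 and 5.90 on high fat, 5.97 and 5.54 in the knockout on regular diet and 6.15 and 6.03 on high fat. Only the wild-type regular-diet arrays lay above their array median. It fell with diet in wild type by -2.25 ± 0.14 (SE, 4.74-fold, limma adjusted p = 4.97e-13) and with genotype on the regular diet by -2.45 ± 0.14 (5.47-fold, adjusted p = 3.75e-14), comparisons that share the wild-type regular-diet arrays. It was not called with genotype on the high fat diet (0.13 ± 0.14) or with diet in the knockout (0.34 ± 0.14, adjusted p = 0.0977), where it passed without knockout regular-diet array a (0.56, adjusted p = 0.0104). The interaction of 2.59 ± 0.19 (adjusted p = 3.09e-11) was the most positive of the members and held under each alternative.

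The smooth muscle markers had the same high group, with means of 11.07 to 11.11 in wild type on regular diet and 7.48 to 8.41 elsewhere in that experiment, and those arrays also had the lowest 3′ to 5′ difference of Gapdh. The part of these in the Adamts1 result was not tested. With the antibody Adamts1 went from 8.20 and 8.30 to 8.71 and 8.63 (0.42 ± 0.14, SE, limma adjusted p = 0.0241), a call lost without any 1 of the 4 arrays (adjusted p = 0.0513 to 0.14) and after quantile normalization (adjusted p = 0.167), while 6 of the 8 smooth muscle markers were higher.

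Adamts5, a main aggrecanase that also cleaves versican, was called in all 6 comparisons. It read 9.18 and 9.10 in wild type on regular diet, 9.63 and 9.73 on high fat, 7.50 and 7.41 in the knockout on regular diet and 8.50 and 8.39 on high fat. All knockout arrays lay below all wild-type arrays, at -1.68 ± 0.10 (SE, 3.21-fold, limma adjusted p = 2.05e-13) on the regular and -1.23 ± 0.10 (2.35-fold, adjusted p = 4.81e-10) on the high fat diet. The diet raised it in both genotypes, by 0.54 ± 0.10 in wild type (adjusted p = 0.000369) and 0.99 ± 0.10 in the knockout (1.99-fold, adjusted p = 1.82e-08), the former lost with the mean of its probe sets (0.27, adjusted p = 0.0916). The difference between these diet responses, 0.45 ± 0.14 (adjusted p = 0.0271), was lost without some arrays and in 3 of the other settings (adjusted p = 0.0568 to 0.566), and its other probe sets gave interactions of 0.06 or less.

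With the antibody Adamts5 fell from 11.52 and 11.61 to 10.20 and 10.27, a difference of -1.33 ± 0.10 (SE, 2.52-fold, limma adjusted p = 4.61e-11). Adamts5 was thus lower in the knockout on both diets and with the antibody, comparisons that share no arrays between the experiments. For genotype 3 of its 4 probe sets were called lower on each diet and with the antibody, at -1.33, -1.35 and -1.53 in the last case, and the dimmest was near 0. Its neighbour on chromosome 16 is Adamts1, with 0 protein-coding genes between them in RefSeq's table, and with the antibody the 2 genes were called in opposite directions. Of the 12 macrophage markers, 9, 8 and 11 were lower in these 3 comparisons, and 5 of 10 fibroblast and fat cell precursor markers were lower with the antibody and 2 higher, against 3 lower with genotype on the regular and 0 on the high fat diet. The part of these lists in the Adamts5 result was not tested.

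**Figure D4:**
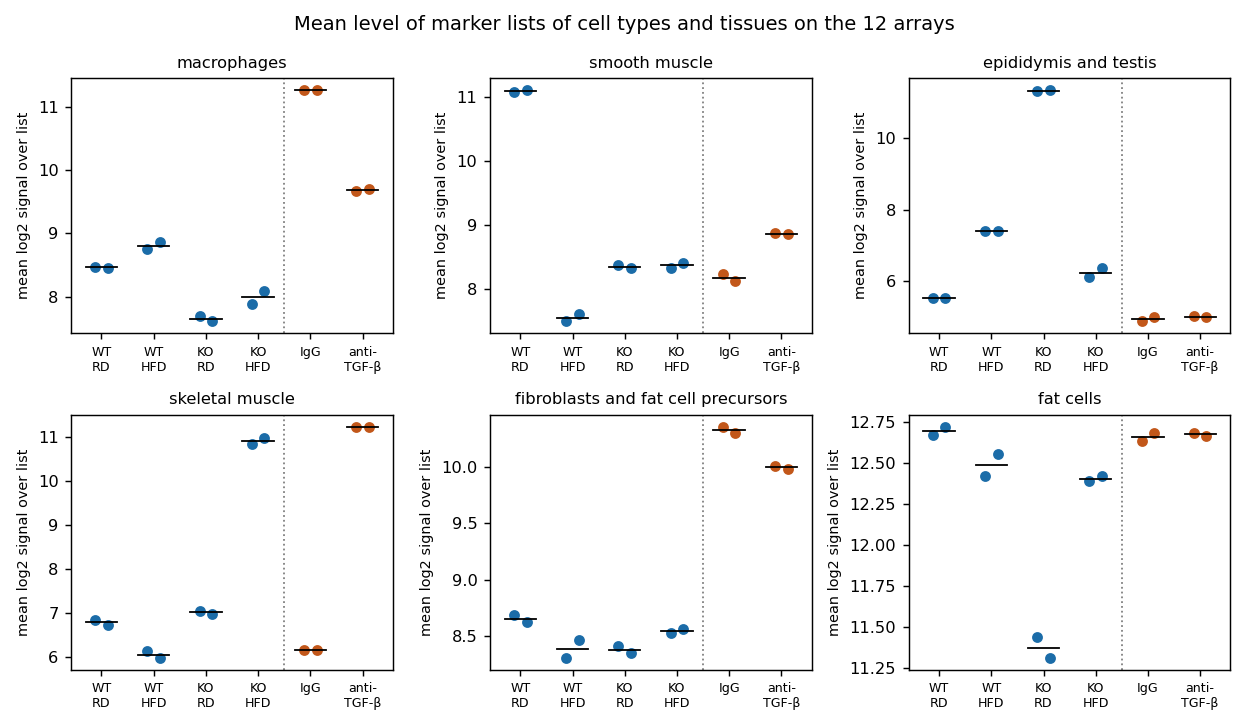
Mean log2 signal over the measured genes of 6 marker lists on each array (points) with the mean of 2 arrays (bars), by group as WT or KO on RD or HFD, IgG and anti-TGF-β; the dotted line separates the experiments. Macrophage markers fall from 11.26 with IgG to 9.66 and 9.70 with the antibody, smooth muscle markers are highest in wild type on regular diet, and skeletal muscle markers are high in the knockout on high fat diet and with the antibody.

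Adamts9, a versican-cleaving protease, read 9.06 and 8.93 in wild type on regular diet, 8.31 and 8.29 on high fat, 8.62 and 8.53 in the knockout on regular diet and 8.33 and 8.19 on high fat. The wild-type regular-diet arrays were the highest. It fell with diet in wild type (-0.69 ± 0.11, SE, limma adjusted p = 4.16e-05), and with genotype on the regular diet (-0.42 ± 0.11, adjusted p = 0.00511, lost without wild-type regular-diet array a and after quantile normalization at adjusted p = 0.0803 and 0.102) and with diet in the knockout (-0.32 ± 0.11, adjusted p = 0.0478), a call lost under 4 other settings and without any 1 of the 4 arrays concerned (adjusted p = 0.0628 to 0.333). Averaging its probe sets brought that value to -0.11. With the antibody it rose from 9.63 and 9.36 to 9.97 and 10.00 (0.49 ± 0.11, adjusted p = 0.00128), which was lost without IgG array b (adjusted p = 0.0599).

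Adamts15, a further proteoglycan-cleaving member, read 7.42 and 7.58 in wild type on regular diet, 6.99 and 6.74 on high fat, 6.58 and 6.80 in the knockout on regular diet and 6.74 and 6.83 on high fat. It was lower with diet in wild type (-0.64 ± 0.14, SE, limma adjusted p = 0.00203, lost without wild-type high-fat array b at adjusted p = 0.0597) and with genotype on the regular diet (-0.81 ± 0.14, adjusted p = 5.01e-05). Its interaction was 0.73 ± 0.20 (adjusted p = 0.00826), lost without wild-type high-fat array b or knockout regular-diet array a. With the antibody it fell from 7.85 and 7.78 to 6.93 and 7.28 (-0.71 ± 0.14, adjusted p = 0.000307). The other proteoglycan-cleaving members, Adamts4, Adamts8 and Adamts20, were called in no comparison, and Adamts20 lay under the array median on all arrays.

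Of the remaining ADAMTS proteases, only Adamts12, which cleaves cartilage oligomeric matrix protein, was called. It rose with diet in the knockout from 7.39 and 7.22 to 7.83 and 7.75 (0.49 ± 0.12, SE, limma adjusted p = 0.00364) and fell with the antibody from 8.92 and 8.83 to 8.41 and 8.44 (-0.46 ± 0.12, adjusted p = 0.00519). Both calls were lost when the mean of its 2 probe sets was used (adjusted p = 0.38 and 0.346), the first also without knockout regular-diet array b (adjusted p = 0.0621) and the second without IgG array a or after quantile normalization (adjusted p = 0.0549 and 0.0568). Adamts3, which processes procollagen, and Adamts6, Adamts7, Adamts10, Adamts16, Adamts18 and Adamts19 were not called in any comparison.

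ADAMTS-like genes, whose products bind fibrillin microfibrils or other matrix proteins, had 5 calls, 4 of them with the antibody. Of these 5 genes 80% were called with the antibody, against 24.3% of all genes. For genotype on the regular diet it was 20%, against 24% of all genes. Adamtsl1 rose from 6.83 and 6.81 to 7.43 and 7.63 (0.71 ± 0.13, SE, limma adjusted p = 0.000199) and Adamtsl4 from 7.32 and 7.24 to 7.60 and 7.89 (0.47 ± 0.13, adjusted p = 0.00885). Adamtsl2, a binding partner of fibrillin and of latent TGF-beta binding protein, fell from 8.01 and 7.94 to 7.41 and 7.50 (-0.52 ± 0.12, adjusted p = 0.00136). The groups did not overlap for these 3 genes, and the call of Adamtsl4 was lost without IgG array b or antibody array b (adjusted p = 0.064 and 0.176) and after quantile normalization (adjusted p = 0.0888). Adamtsl5 was called lower with the antibody (-0.41 ± 0.14, adjusted p = 0.0284) and in the knockout on regular diet (-0.39 ± 0.14, adjusted p = 0.0431). The genotype call was lost without any 1 of the 4 arrays (adjusted p = 0.0868 to 0.189) and with the mean of its probe sets (adjusted p = 0.126). Its 2 probe sets were called in opposite directions with the antibody (-0.41 and 0.50), and their mean gave 0.04 (adjusted p = 0.845). Adamtsl3 was not called.

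Over all uncalled pairs of member and comparison, log2 differences lay between -0.37 and 0.36 for 2 groups and between -0.51 and 0.51 for the interaction. A lack of a call does not show that a gene was the same in both groups.

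The other genes of the pathway begin with the substrates of these enzymes. Of 19 measured substrates, 9 were lower and 0 higher in the knockout on regular diet (47.4%, against 24% of all genes, with medians of -0.35 and 0.04). With diet in wild type 5 were lower and 0 higher (26.3%, against 10.8% of all genes). With diet in the knockout 8 were higher and 0 lower (42.1%, against 17.3% of all genes). Thbs1, the matrix protein thrombospondin 1, read 8.77 and 8.79 in wild type on regular diet, 7.47 and 7.42 on high fat, 5.67 and 5.59 in the knockout on regular diet and 6.07 and 6.34 on high fat. Fn1, fibronectin, read 10.87 and 10.82, 10.15 and 10.19, 8.91 and 8.74, and 9.97 and 10.11 in the same order of groups. For both the knockout regular-diet arrays were the lowest. Genotype on the regular diet gave -3.15 ± 0.12 (SE, limma adjusted p = 4.27e-18) for Thbs1 and -2.02 ± 0.10 (adjusted p = 2.49e-15) for Fn1, with interactions of 1.91 and 1.89. On the high fat diet 3 substrates were lower and 1 higher in the knockout (21.1%, against 10.8% of all genes), among them Thbs1 (-1.24) and Vwf, von Willebrand factor (0.41).

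With the antibody, 11 of the 19 substrates were lower and 3 higher (73.7%, against 24.3% of all genes, with medians of -0.44 and -0.0031). Col3a1, a fibrillar collagen chain, fell from 12.82 and 12.70 to 11.27 and 11.29 (-1.48 ± 0.11, SE, limma adjusted p = 3.74e-11), and Ncan, the proteoglycan neurocan, from 8.83 and 8.73 to 4.98 and 4.90 (-3.84 ± 0.13, adjusted p = 1.4e-18). Thbs1 and Lamb1, a laminin chain, went the other way, at 0.54 and 0.41. Fibrillar collagens also count among the fibroblast markers, of which 5 of 10 were lower.

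Of 9 genes of procollagen processing and of other proteases, 4 were lower and 0 higher with the antibody (44.4%, against 24.3% of all genes). They were Pcolce2, an enhancer of procollagen C-proteinase (-1.17), Fap, a fibroblast surface protease (-1.06), Htra1, a serine protease (-0.45), and Bmp1, the C-proteinase itself (-0.50). In the knockout 3 were lower and 1 higher on the regular diet (44.4%, against 24% of all genes), with Htra1 at -2.12 ± 0.12 (SE, limma adjusted p = 3.27e-14) and Pcolce2 at -1.18 ± 0.15. On the high fat diet 2 were lower (22.2%, against 10.8% of all genes), again Pcolce2 (-1.23) and Htra1 (-0.92). With diet in the knockout 3 were higher (33.3%, against 17.3% of all genes), led by Htra1 (1.15).

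Among 8 membrane-bound ADAM proteases, 5 were lower and 2 higher with the antibody (87.5%, against 24.3% of all genes). Adam8, a protease of myeloid cells, read 9.94 and 9.81 with IgG and 7.12 and 7.48 with the antibody (-2.58 ± 0.15, SE, limma adjusted p = 7.31e-14), and Adam33 was higher by 0.51. On the regular diet 3 were lower and 2 higher in the knockout (62.5%, against 24% of all genes), with Adam9 at -1.06 and Adam10, a main sheddase, at 0.64. On the high fat diet Adam8 (-0.59) and Adam9 (-0.48) were lower (25%, against 10.8% of all genes). With diet in the knockout Adam10 fell by 0.86 and Adam19 rose by 0.38 (25%, against 17.3% of all genes). With diet in wild type Adam9 fell by 0.34 (12.5%, against 10.8% of all genes).

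Of 13 activators, receptors and other inhibitors of MMPs, 2 were higher and 3 lower with the antibody (38.5%, against 24.3% of all genes). Tfpi2, a serine protease inhibitor of the matrix, went from 8.08 and 8.09 to 5.78 and 5.95 (-2.22 ± 0.18, SE, limma adjusted p = 9.9e-11), and Pcsk5, a proprotein convertase, rose by 0.85. In the knockout on regular diet 2 were higher and 2 lower (30.8%, against 24% of all genes). Lrp1, the receptor that clears MMP and TIMP complexes, stood at -1.07 ± 0.11 and Spock1, a matrix proteoglycan, at 0.60. With diet in the knockout 1 was higher and 1 lower (15.4%, against 17.3% of all genes), Lrp1 at 0.73 and Spock1 at -0.56. Of 7 genes of the plasminogen system, whose product plasmin can activate proMMPs, 3 were lower with the antibody (42.9%, against 24.3% of all genes). The largest fall was that of Plg (-1.82, from 7.56 and 7.50 to 5.73 and 5.69). For genotype on the regular diet the calls were 2 lower and 1 higher (42.9%, against 24% of all genes). Diet in wild type gave 1 higher (14.3%, against 10.8% of all genes). Diet in the knockout gave 1 higher and 1 lower (28.6%, against 17.3% of all genes). Skeletal muscle markers, 12 of 12, were higher with the antibody (means of 11.24 against 6.15 to 6.16) and, in the knockout on high fat diet (10.85 to 10.98), than in wild type on that diet (5.98 to 6.13) and than in the knockout on regular diet (6.99 to 7.06). All 12 also had a positive interaction, as had 9 of the 12 members called there and 2181 of the 3413 genes called there among all genes. The part of these markers in the results of these 4 comparisons, the diet differences in the knockout included, was not tested.

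The 21 members with several probe sets allow a comparison within a gene. For genotype on the regular diet, all 4 Timp3 probe sets gave values below 0, from -0.56 to -1.32, and both of Timp4 did, at -1.88 and -2.17. Of 6 for Timp2, 4 were lower (-0.38 to -1.21) and the other 2 stood at -0.17 and 0.03. Averaging the probe sets of a gene brought genotype on the regular diet to -0.58 for Timp2 and -0.76 for Adamts5, and the diet difference in the knockout to 0.36 for Timp2, 0.29 for Timp3 and 0.41 for Adamts5, all still called. It brought genotype on the high fat diet to -0.62 for Adamts5, and the interaction to 0.71 for Timp2. Quantile normalization brought the interaction of Timp3 to 0.78, still called. Mmp24, another membrane-type MMP, was not called with its brightest probe set, but its dimmest was higher in the knockout on regular diet (0.61) and lower with diet in the knockout (-0.67). In RefSeq's table Timp1 overlaps Syn1, Timp2 overlaps Cep295nl, Timp3 overlaps Syn3, Timp4 overlaps Syn2, Mmp19 overlaps Tmem198b, Mmp23 overlaps Mib2 and Mmp24 overlaps BC029722, and which strand each probe set reads was not established here.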

How the data were processed

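The member families, taken by symbol, and the gene lists were chosen with earlier results of these data known, so no list or pattern is independent evidence. The authors deposited log2 values made with RMA in Partek, per the submitters' processing notes, with no version recorded in the labels. Of 45101 probe sets, 34958 named 1 gene through the platform annotation, 932 several and 9211 none. The 42 members had 78 probe sets, and all matched by gene ID to RefSeq's table of GRCm38.p6, with 0 symbols changed. Of 51 symbols written for the role lists, 42 were measured.

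Group means of all 12 arrays were fitted in R 4.3.3 with limma 3.58.1 (lmFit, contrasts, and eBayes using an intensity trend), and two-sided p-values were adjusted over 18194 genes by Benjamini-Hochberg, with a threshold of 0.05, on 6 residual and 20.4 prior degrees of freedom. The number of arrays limits the precision. The fit was tested on simulated data. Values were named for the 8 highest and 8 lowest called members of a comparison and for a preset list (the Timp genes, Mmp2, Mmp3, Mmp9, Mmp11, Mmp12, Mmp14, Adamts1 and Adamts5). The values of Adamtsl5, Mmp24 and Adamts3 were added after they were seen. Other genes were the up to 2 highest and 2 lowest called of a list, beside a few chosen after their values were seen (Bmp1, Htra1 with the antibody). Promoters came from RefSeq's table, and no protein sequences were used here. Alternatives were no intensity trend, a filter at the 40th percentile, probe sets averaged per gene, median-centred arrays, quantile normalization over 12 arrays, only the arrays of an experiment, the array letter as a block, and each array left out in turn, where a lone array was given the spread of the other groups.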

Additional observations from a re-analysis of the deposited data

Results flagged for a closer look

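The diet response differed between the genotypes in 12 members, by limma's test of the interaction (adjusted p over all genes under 0.05). The diet difference was more positive in the knockout for Adamts1 by 2.59, Timp3 by 1.20, Timp2 by 1.19, Timp4 by 1.16, Mmp19 by 0.96, Adamts15 by 0.73, Mmp23 by 0.52, Adamts5 by 0.45 and Mmp2 by 0.43 log2. It was more negative for Mmp14 (-0.57), Mmp12 (-0.77) and Mmp7 (-2.91). Groups of 2 arrays were not examined for a sample far from the others.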

How the results depend on the processing

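The 103 pairs of member and comparison looked at were the 69 called ones and those of the preset genes. Over 19 alternatives, 1818 of 1941 values stayed on their side of the threshold, 117 lost the call, 5 gained it and 1 reversed. Direction was compared only where a value was called in either fit. Calls gained by other members were not counted. Quantile normalization, for example, called 12 members for genotype on the regular diet, 9 of them called in the main fit. The reversed value was Adamtsl5 with the antibody, at 0.045 when its probe sets were averaged. With probe sets averaged per gene, diet in the knockout had 7 members called (1 lower) in place of 11 (3 lower), and genotype on the regular diet had 3 higher in place of 1. Over all genes, diet in the knockout then had 2573 calls in place of 3150. Quantile normalization gave 4 higher in place of 1 for genotype on the regular diet, 4 in place of 2 on the high fat diet, and 13 called (5 higher) in place of 20 (9 higher) with the antibody. Mmp1a and Mmp20, the 2 members called higher for genotype on the high fat diet, were not among the genes above the 40th percentile. With only those genes, 5 members were called in place of 6, and 4 of them were called in the main fit. The 1 called higher there was another member. With 1 array left out, calls ranged from 6 to 11 for diet in the knockout (4 to 8 higher, 2 to 3 lower), from 12 to 20 with the antibody (3 to 9 higher, 7 to 11 lower), and from 1 to 3 higher for genotype on the high fat diet. Among all genes, calls for diet in the knockout and with the antibody also became fewer without any 1 array of the groups compared. The cause of these changes was not tested.

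The array letter was tried as a replicate block. The deviations of same-lettered arrays correlated between -0.161 and 0.169 over pairs of groups. What the letters stand for is not stated in the labels, and these correlations do not settle it. With the replicate block 20 members were called with the antibody and 12 in the interaction, as without it, and no call of a named member changed. The 16 members not above the 40th percentile include Mmp1a, Mmp1b, Mmp8, Mmp13 and Mmp20, where signal over background limits what can be seen.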
